A study of Homo sapiens with 20 samples.

Results

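The 200 most abundant long noncoding RNAs (lncRNAs) of 5 gastric cancer cell lines were examined with decitabine (DCB) and with its solvent, DMSO. They were chosen by their measured level, as the 200 rows with the highest mean over the 20 libraries among the 16845 rows of the lncRNA class, in a table of 60232 genes, after 9 imprinted lncRNAs were left out (H19, KCNQ1OT1, MEG3, MEG8, MEG9, MESTIT1, SNHG14, GNAS-AS1 and HYMAI). DCB resembles cytidine, enters newly made DNA and there holds the DNA methyltransferases fast, so that methylation is lost as cells divide. It was given for 72 h, and DMSO was given to the reference cells. Each line had 2 DCB and 2 DMSO libraries: YCCEL1 and SNU719, which carry Epstein-Barr virus (EBV+), and AGS, HGC27 and SNU16, which do not (EBV−). The study's paper counts YCCEL1, SNU719 and AGS as lines with the CpG island methylator phenotype (CIMP+) and HGC27 and SNU16 as lines without it (CIMP−), and each group rests on single established lines grown in culture.

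An lncRNA is a transcript longer than most small RNAs that is not known to be translated. Some act in the nucleus as scaffolds, some matter mainly for small RNAs cut from their introns, such as the small nucleolar RNAs (snoRNAs) that guide the modification of ribosomal RNA or the precursors of microRNAs, and many have no known role. Most lncRNAs are scarce and bound to few tissues, and promoters rich in CG pairs are often silent where they are methylated. Of the 200 members, 177 were above 0 in every library.

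The mean value of the members ran from 117 to 9193, with a median of 200.7. Values are the authors' normalized estimated counts, they are not divided by transcript length, and so levels are compared here between libraries for a given gene and not between genes. At the limit, FOXD2-AS1 (rank 200, mean 117.1), SNHG30 (117.5), BAIAP2-DT (117.5), NUTM2B-AS1 (117.8) and MAP4K3-DT (118.2) were the last taken, and AL162595.1 (116.8), LINC02604 (116.4), CYTOR (115.5), NBR2 (115.4) and RAB30-DT (115.1) were the next ones below. By the mean of the DMSO libraries alone 188 of the 200 would have been taken, and by the median 169. The 12 that entered through their DCB values were UCA1, LINC02043, MIR99AHG, LINC01551, MIR23AHG, MIR22HG, PRKG1-AS1, HCP5, AL590807.1, FLJ36000, AL590867.1 and AL391425.1, and 9 of them rose with DCB over the 5 lines. XIST is a member and is counted, but its levels are not given.

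The libraries summed to 7764408 to 9321014, and same-group libraries correlated at 0.969 to 0.980 across genes. Keratins and other epithelial markers were at 10 or more in 7 of 7 genes in YCCEL1, SNU719, AGS and SNU16 under both treatments, with sums of 37257 to 108075. In HGC27, 6 of 7 with DCB and 5 of 7 with DMSO reached 10, with sums of only 572 and 159, while the 5 mesenchymal markers summed to 70223 with DCB and 115693 with DMSO. Gastric and intestinal markers (MUC5AC, TFF1, GKN1, CDX2 and VIL1) summed to 54.2 with DCB and 20.5 with DMSO in HGC27 and to 935 to 7027 in the other lines. The leukocyte markers summed to at most 46.7 in any group. The labels do not say that the 2 libraries of a group came from separate cultures, so the p-values below measure the spread between these libraries, which may be technical. The test over the 5 lines fits the same DCB effect in every line. Its spread therefore also holds the differences between lines in that effect. A member that did not pass there may still have changed in single lines. In cultures sequenced in bulk, fewer cells that make an RNA and less of it per cell cannot be told apart.

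The members together made up 0.886% to 1.05% of all values in the DCB libraries, against 0.838% to 1.36% in the DMSO libraries. Their share was lower with DCB than with DMSO in every library of HGC27 (0.906% and 0.900% with DCB, against 1.31% and 1.36% with DMSO) and of YCCEL1 (1.03% and 1.05% with DCB, against 1.20% and 1.21% with DMSO). It was also lower in SNU719 (0.919% and 0.913% with DCB, against 0.979% and 0.967% with DMSO) and in SNU16 (1.02% and 1.03% with DCB, against 1.06% and 1.04% with DMSO). In AGS it was higher with DCB (0.886% and 0.903%) than with DMSO (0.838% and 0.847%). The 10 highest members held 41.3% of the members' sum. These were NEAT1, SNHG29, MALAT1, GAS5, NORAD, XIST, ZFAS1, SNHG1, SNHG32 and AD000090.1, of which GAS5, ZFAS1, SNHG29, SNHG1 and SNHG32 are snoRNA hosts.

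**Figure D1:**
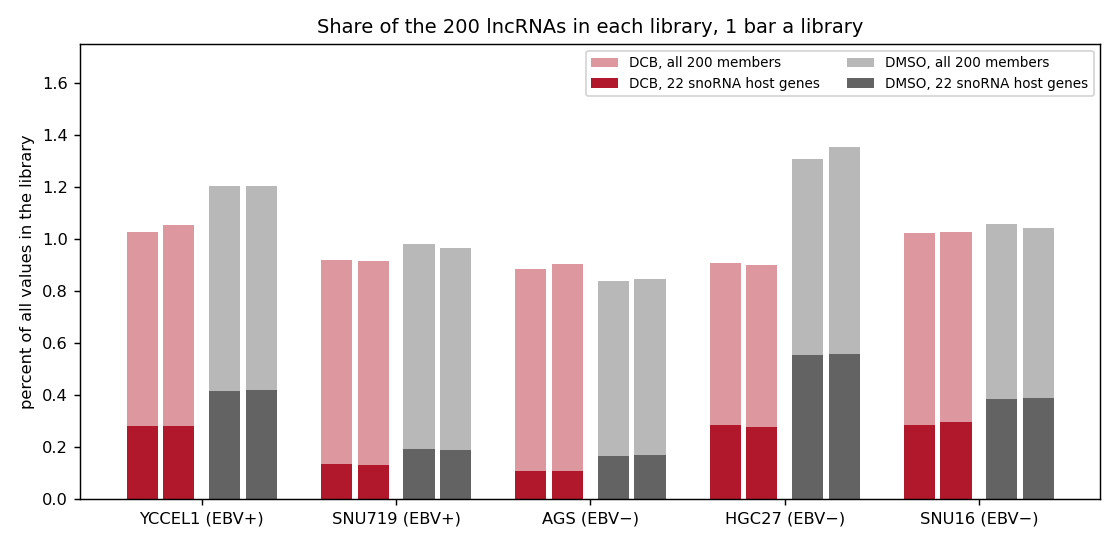
Share of all values in each library, in percent, held by the 200 members (pale bars) and by the 22 snoRNA host genes among them (dark bars), with 1 bar for each library, DCB in red and DMSO in grey. In all 5 lines both dark DCB bars lie below both dark DMSO bars, with the lowest at 0.107% in AGS with DCB and the highest at 0.558% in HGC27 with DMSO.

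In limma's test of log2(value + 1) with a term for the line, 41 members rose and 36 fell with DCB over the 5 lines at an adjusted p below 0.05. Over all 27350 genes tested, 17.9% were higher and 6.94% were lower by the same rule. The members' 41 are 20.5%, close to that background, and their 36 are 18.0%, above it. Of the 10043 genes with a mean at least as high as that of the lowest member, a background of like abundance, 12.8% were higher and 16.4% lower, so that the falls were near this share. Among the 6906 other lncRNAs tested, 12.7% were higher and 0.941% lower. Since 12 members entered through their DCB values, the count over the 188 others is the safer one, and 32 of these rose and 36 fell. The median log2 fold change was 0.06 over the members, against 0.15 over all genes tested. With values scaled to equal totals 46 members rose and 26 fell, and with quantile normalization, under which the median of all genes tested was −0.05, 34 rose and 38 fell. Adding the fold limit of the paper (an absolute log2 fold change above 2), 3 members stayed above it (3.4% of all genes tested), UCA1, AL391425.1 and XIST, and none lay below the limit. Among the genes of like abundance 1.34% lay above this limit and 0% below it. UCA1 and AL391425.1 are among the 12 that entered through their DCB values, so that their rises were partly chosen.

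By line, the rises and falls were counted from a fit of 10 groups of line and treatment that shares its spread. In YCCEL1, 37 members rose and 26 fell (14.6% higher and 6.93% lower over all genes tested). In SNU719, 29 rose and 33 fell (13.5% and 7.64%). In AGS, 47 rose and 48 fell (18.5% and 9.13%). In HGC27, 22 rose and 44 fell (14.7% and 9.03%), and in SNU16, 14 rose and 10 fell (4.5% and 2.34%). Among the genes of at least the lowest member's mean, 21.6% were higher and 18.6% lower in HGC27, so that the members' rises there (22 members) were fewer and their falls (44 members) somewhat more by share. In the same genes the shares were 12.3% and 17.2% in YCCEL1, 14.3% and 18.2% in SNU719, 19.1% and 19.9% in AGS, and 4.23% and 5.65% in SNU16, against members' shares of 18.5% and 13.0%, 14.5% and 16.5%, 23.5% and 24.0%, and 7.00% and 5.00% in these lines. Over the 188 members that the DMSO mean would also have taken, 30 rose and 26 fell in YCCEL1, 22 and 33 in SNU719, 39 and 48 in AGS, 20 and 43 in HGC27 and 12 and 10 in SNU16, so that part of the rises came from the way the members were chosen. Single libraries moved some counts: the falls in YCCEL1 numbered 16 without DMSO replicate 1, the rises in SNU719 16 without DMSO replicate 2 and 19 without either DCB library, and the falls in SNU719 19 without DMSO replicate 1 and 21 without DCB replicate 1. Across lines, 63 members rose in at least 1 line and fell in none, 57 fell in at least 1 and rose in none, 23 rose in some and fell in others, and 57 were called in no line. The 9 members that fell in all 5 lines were SNHG29, GAS5, ZFAS1, SNHG1, SNHG32, SNHG5, SNHG7, SNHG6 and SNHG19, all of them snoRNA hosts. The 3 that rose in all 5 were AP000547.3, AC138207.7 and LINC02043.

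**Figure D2:**
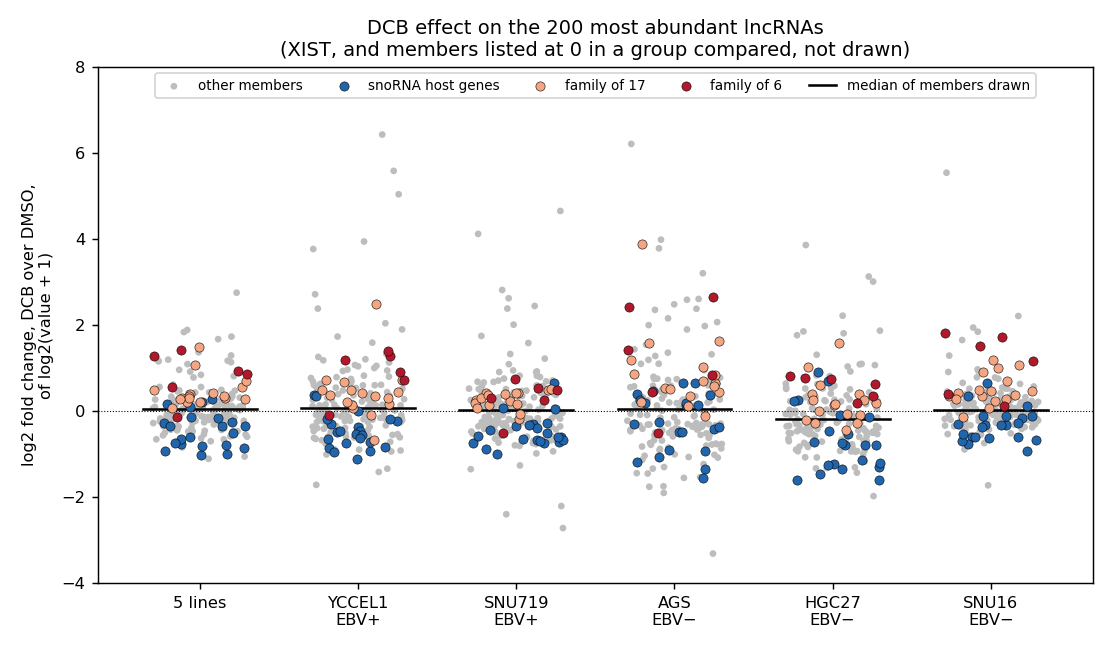
Log2 fold change of DCB over DMSO, on the scale of log2(value + 1), for each member over the 5 lines and in each line. XIST is not drawn, nor a member listed at 0 in a group of that comparison, which leaves 188 points over the 5 lines and 192 to 197 in single lines. Blue points are snoRNA hosts, orange and red points the families of 17 and 6 members with shared sequence, and black bars the median of the points drawn. Blue points lie mostly below 0 and red points mostly above it.

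Most of the host genes of snoRNAs fell. Their introns carry the snoRNAs, their spliced RNAs are short-lived in many cases, and several of them, GAS5 the best studied, are known to start with a run of pyrimidines as the mRNAs of ribosomal proteins do. Of 36 genes on the list 22 are members, and 15 of these fell over the 5 lines, none rose, and the other 7 did not pass. Over all genes tested 6.94% were lower, and among the genes of at least the lowest member's mean 16.4%. The median log2 fold change of the 22 was −0.43, against −0.03 over the genes of at least the lowest member's mean. By line, the falls were 14 of 22 in YCCEL1, 14 in SNU719, 11 in AGS, 16 in HGC27 and 9 in SNU16, with a rise of 1 each in AGS and in HGC27 (SNHG12). In the same order, 6.93%, 7.64%, 9.13%, 9.03% and 2.34% of all genes tested were lower. Of the genes of at least the lowest member's mean, 17.2%, 18.2%, 19.9%, 18.6% and 5.65% were lower. The list was drawn up with results of these data known. The falls numbered 12 with equal totals, 14 with quantile normalization and 12 to 15 when each library was left out in turn. Over the 31 of the 36 that were tested, members or not, 16 fell and 2 rose.

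The starts of these hosts are shown because the fall is shared by genes known for the pyrimidine run at that place. From RefSeq (GRCh38.p14), the 60 bases around the annotated start are printed on the transcribed strand, 30 before it and 30 from it on, with the longest run of C and T that touches the 10 bases on either side of it in capitals.
SNHG29: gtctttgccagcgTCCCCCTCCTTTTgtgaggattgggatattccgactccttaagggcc
GAS5: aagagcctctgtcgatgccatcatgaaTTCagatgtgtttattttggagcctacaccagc
ZFAS1: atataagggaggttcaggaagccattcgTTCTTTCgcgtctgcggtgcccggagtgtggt
SNHG1: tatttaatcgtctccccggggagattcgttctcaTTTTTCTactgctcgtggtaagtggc
SNHG32: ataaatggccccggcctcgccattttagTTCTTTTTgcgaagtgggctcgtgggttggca
SNHG5: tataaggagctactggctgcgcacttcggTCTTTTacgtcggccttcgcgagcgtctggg
SNHG7: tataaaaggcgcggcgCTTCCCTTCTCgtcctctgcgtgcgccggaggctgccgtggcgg
SNHG19: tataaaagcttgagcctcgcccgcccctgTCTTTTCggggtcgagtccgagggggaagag
SNHG12: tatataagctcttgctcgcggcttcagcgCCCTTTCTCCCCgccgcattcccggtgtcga
SNHG4: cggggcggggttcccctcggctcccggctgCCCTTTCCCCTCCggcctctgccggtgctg
The windows lie at chr17:16438957-16439016 on the plus strand for SNHG29, chr1:173869016-173869075 on the minus strand for GAS5, chr20:49278612-49278671 on the plus strand for ZFAS1, chr11:62855856-62855915 on the minus strand for SNHG1, chr6:31834886-31834945 on the plus strand for SNHG32 and chr6:85678704-85678763 on the minus strand for SNHG5. Those of SNHG7, SNHG19, SNHG12 and SNHG4 lie at chr9:136728155-136728214 on the minus strand, chr16:2155329-2155388 on the minus strand, chr1:28581844-28581903 on the minus strand and chr5:139274071-139274130 on the plus strand. The first 8 of these members fell in all 5 lines. SNHG12 and SNHG4, printed last, did not pass over the 5 lines, and their runs are 12 and 13 bases long. A run of at least 6 bases was found at 13 of the 20 member hosts with a promoter in RefSeq (65.0%), against 36 of the 106 other members with a promoter (34.0%) and 31.1% of all 35116 promoters in the table. Of the 13 hosts with a promoter that fell over the 5 lines, 9 had such a run (69.2%), close to the share over all 20. The 20 include these 13, and whether the run goes with the fall was not tested. A run counted here may also end before the annotated start, as printed for SNHG29 and SNHG7. At GAS5 the annotated start used by RefSeq has a run of only 3. The window printed for it lies outside the span counted for GAS5, which runs from 173858559 to 173868882 on chromosome 1. The letters at the start of the GAS5 RNA measured here are thus not shown. A run is a description of these letters and no mark of how the RNA is handled.

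GAS5, an RNA named for its rise in growth-arrested cells, was at 3938 and 3895 in its DCB libraries and 7374 and 7392 in its DMSO libraries for YCCEL1. In SNU719 it was at 1182 and 1158 with DCB and 1752 and 1771 with DMSO, and in AGS at 977 and 1009 with DCB and 2796 and 3023 with DMSO. In HGC27 it was at 3243 and 3022 with DCB and 8568 and 8674 with DMSO, and in SNU16 at 3335 and 3220.4 with DCB and 4846 and 5147 with DMSO. Both DCB libraries were below both DMSO libraries in every line, and the fall was largest in AGS and HGC27, with log2 fold changes of −1.55 and −1.46. Over the 5 lines GAS5 fell (log2 fold change −1.02, SE 0.10, adjusted p = 1.67e-06).

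ZFAS1, which hosts SNORD12 family snoRNAs, was at 856 and 811 with DCB and 2451 and 2591 with DMSO in HGC27, at 490.1 and 531 with DCB and 1037 and 1112 with DMSO in AGS and at 2255 and 2093 with DCB and 4036 and 3832 with DMSO in YCCEL1. In SNU719 it was at 969 and 992 with DCB and 1588 and 1512 with DMSO, and in SNU16 at 2042 and 2084 with DCB and 3536 and 3415 with DMSO. The groups did not overlap in any line, and ZFAS1 fell over the 5 lines (log2 fold change −0.99, SE 0.09, adjusted p = 4.39e-07). SNHG29, the second highest member, was at 8649.7 and 8118 with DCB and 19404 and 19572 with DMSO in HGC27, where it was highest, and at 1344 and 1262 with DCB and 3305 and 3275 with DMSO in AGS, where it was lowest. It fell in these and in the other 3 lines, and over all of them (log2 fold change −0.91, SE 0.08, adjusted p = 2.13e-07).

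SNHG1 fell (log2 fold change −0.76, SE 0.09, adjusted p = 1.08e-05), least in AGS, where it was at 699.7 and 781 with DCB and 873 and 887 with DMSO, and most in HGC27, where it was at 1156 and 1115 with DCB and 2740.3 and 2669.6 with DMSO. SNHG7, SNHG5 and SNHG32 fell with log2 fold changes of −0.85, −0.80 and −0.79 (adjusted p = 1.95e-05, 7.06e-06 and 1.42e-05). SNHG8, SNHG19 and SNHG6 followed with −0.64, −0.60 and −0.51 (adjusted p = 0.000229, 7.81e-05 and 3.21e-05). EPB41L4A-AS1, which hosts SNORA13, fell over the lines (log2 fold change −0.75, SE 0.15, adjusted p = 0.00122). It did not pass in SNU16 (−0.60) or in SNU719, where it was at 209.7 and 191 with DCB and 142 and 262 with DMSO. Smaller falls were seen for SNHG17 (−0.35, adjusted p = 0.0250), SNHG15 (−0.34, adjusted p = 0.0127), SNHG11 (−0.34, adjusted p = 0.0474) and DANCR (−0.28, adjusted p = 0.0322). With equal totals SNHG17, SNHG11 and DANCR did not pass, and the calls ended when any of 15 libraries was left out for SNHG11, any of 7 for DANCR and SNU719 DMSO replicate 2 for SNHG17.

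The hosts that did not pass were not uniform. SNHG12 rose in AGS (0.66) and HGC27 (0.92) and fell in SNU719 (−0.58), so that its value over the lines was 0.09. In HGC27 it was at 279 and 249 with DCB and 145 and 133 with DMSO. SNHG3 and SNHG10 varied between same-group libraries: SNHG3 was at 553 and 258 with DCB and 333 and 172 with DMSO in SNU719, and SNHG10 at 88.3 and 53.03 with DCB and 263 and 71.0 with DMSO there. SNHG16, SNHG20, SNHG4 and SNHG30 had log2 fold changes of −0.14, −0.15, −0.26 and 0.20.

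**Figure D3:**
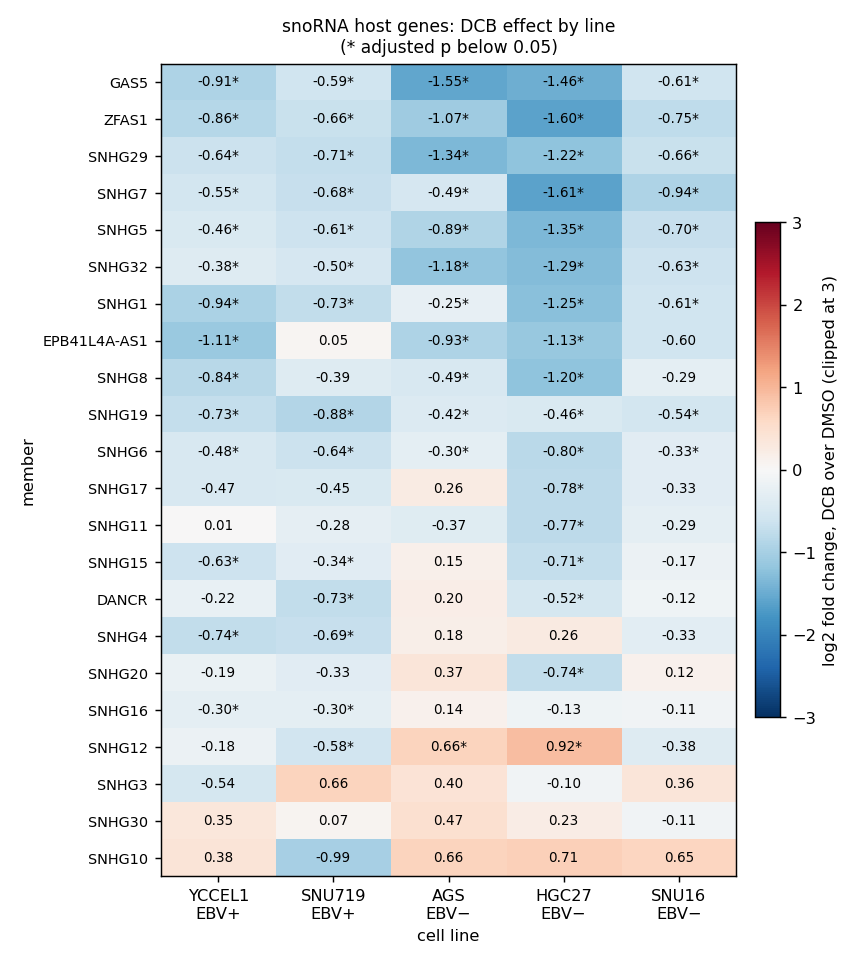
Log2 fold change of DCB over DMSO in each line for the 22 snoRNA hosts among the members, ordered by the value over the 5 lines, blue for lower and red for higher with DCB, and * for an adjusted p below 0.05. From GAS5 down to SNHG6, 9 of the first 11 rows carry * in all 5 lines, and SNHG12 has * in both directions.

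Members that share sequence with each other rose in many cases. The members' GENCODE transcripts were compared by their 31-base words, and members with at least 10% of their words in another member, in either direction, were put into a family, without use of any level. This gave 7 families with 34 members. Over the 5 lines 16 of the 34 rose and 2 fell, against 25 and 34 of the 166 members in no family. Over all genes tested 17.9% were higher and 6.94% lower. Among the genes of at least the lowest member's mean 12.8% were higher and 16.4% lower. Of the 34, LINC02043, PRKG1-AS1, AL590807.1 and AL590867.1 entered through their DCB values. Without all 12 such members 13 of 30 in a family rose and 2 fell, against 19 and 34 of 158 in none. The 30 keep members that were joined to a family only through AL590867.1, so this count still depends in part on the choice of members. With limits added after the data were seen, families joined at 5% held 45 members, of which 20 rose and 2 fell, and at 20% they held 25, of which 14 rose and 1 fell. Reads from a shared stretch can be counted for any of the genes that hold it, so that a value of 1 member of a family may hold reads of another gene, and these members are uncertain in that respect.

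In the family of 6, 5 members rose over the 5 lines: LINC02043, AC138207.7, AC074117.1 (now named GTF3C2-AS2), NNT-AS1 and AC012313.1 (now named ZNF584-DT). Without LINC02043, which entered through its DCB values, 4 of 5 rose. The exception was OIP5-AS1, a cytoplasmic lncRNA that binds miR-7. Its value over the lines was −0.12 (adjusted p = 0.408), and it fell in SNU719 and AGS.

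AC138207.7 was at 333 and 307 with DCB and 66.0 and 38.1 with DMSO in AGS and at 698 and 704 with DCB and 197 and 228 with DMSO in SNU16. In YCCEL1 it was at 575 and 560.1 with DCB and 311 and 294 with DMSO, in SNU719 at 279 and 254 with DCB and 189.6 and 177 with DMSO and in HGC27 at 641 and 669 with DCB and 413 and 438 with DMSO. The groups did not overlap in any line, and AGS was the lowest line with DMSO but not with DCB. It rose over the lines (log2 fold change 1.29, SE 0.20, adjusted p = 0.000205).

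LINC02043 was at 147 and 119 with DCB and 21.4 and 26.9 with DMSO in AGS, at 274 and 229 with DCB and 76.9 and 64.3 with DMSO in SNU16 and at 236 and 252 with DCB and 147 and 138 with DMSO in HGC27. It rose in every line and over them (log2 fold change 1.43, SE 0.17, adjusted p = 1.46e-05), and its rise in SNU16 did not pass when that line was fitted alone. AC074117.1 was at 1368 and 1338 with DCB and 538 and 411 with DMSO in SNU16, and its largest value with DMSO in any line was 538. It rose over the lines (log2 fold change 0.93, SE 0.11, adjusted p = 1.3e-05) but not in SNU719. NNT-AS1, which runs from the start region of NNT in the other direction, rose likewise (log2 fold change 0.87, SE 0.11, adjusted p = 3.11e-05), while NNT fell (log2 fold change −0.48, adjusted p = 0.0101). AC012313.1 rose by less (log2 fold change 0.55, SE 0.11, adjusted p = 0.00170), most of all in YCCEL1, where it was at 201 and 255 with DCB and 85.7 and 101 with DMSO.

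The family of 17 is joined mainly through AL590867.1, which shares at least 10% of its words with 13 of the others. Over the 5 lines 10 of the 17 rose and none fell, or 8 of 14 without the 3 that entered through their DCB values, and all 17 log2 fold changes were above 0, with a median of 0.35. AL590867.1 is itself among those 3, and the 14 keep members that reach the limit of 10% only with it. These are AC010733.1, AF117829.1, HIF1A-AS3, LINC01814 and PURPL, of which AC010733.1, HIF1A-AS3 and PURPL rose. The count of 14 is therefore not free of the way the members were chosen. By line, 5 rose in YCCEL1, 1 in SNU719, 10 in AGS, 1 in HGC27 and 4 in SNU16. Over all genes tested 14.6%, 13.5%, 18.5%, 14.7% and 4.5% were higher in these lines, in the same order. The only fall in the family was that of OLMALINC in HGC27 (−0.44). Most rises were small. AC010733.1, AL590807.1, LINC00504, AC011346.1, HIF1A-AS3 and PRKG1-AS1 had log2 fold changes of 0.30 to 0.49, and the largest rise was that of PURPL, described with the p53-linked members. AC010733.1 lies wholly in exons of the coding gene REL on its own strand (100%), and cannot be counted apart from it. AL360020.1, Z82195.3 and AC092445.1, which share 20.9% to 75.7% of their words with each other, rose with a common pattern in AGS, SNU16 and YCCEL1 and not in SNU719 or HGC27.

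Z82195.3 was at 83.9 and 91.4 with DCB and 11.5 and 18.9 with DMSO in YCCEL1, at 399 and 429 with DCB and 157 and 114 with DMSO in AGS and at 238 and 214 with DCB and 110.1 and 105 with DMSO in SNU16. In HGC27 its groups overlapped, with 323 and 357 with DCB and 317 and 368 with DMSO. Over the 5 lines it rose (log2 fold change 1.07, SE 0.24, adjusted p = 0.00309). AL360020.1, of which 84.3% of the words occur in other genes, was at 1267 and 1280.3 with DCB and 393 and 461 with DMSO in AGS and at 714 and 694 with DCB and 611 and 629 with DMSO in SNU719, and rose over the lines (log2 fold change 0.71, SE 0.13, adjusted p = 0.000984). XACT, an RNA that coats the active X chromosome in human pluripotent cells, was uneven between same-group libraries, at 278 and 744 with DCB and 283 and 263 with DMSO in YCCEL1, and did not pass (adjusted p = 0.228).

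**Figure D4:**
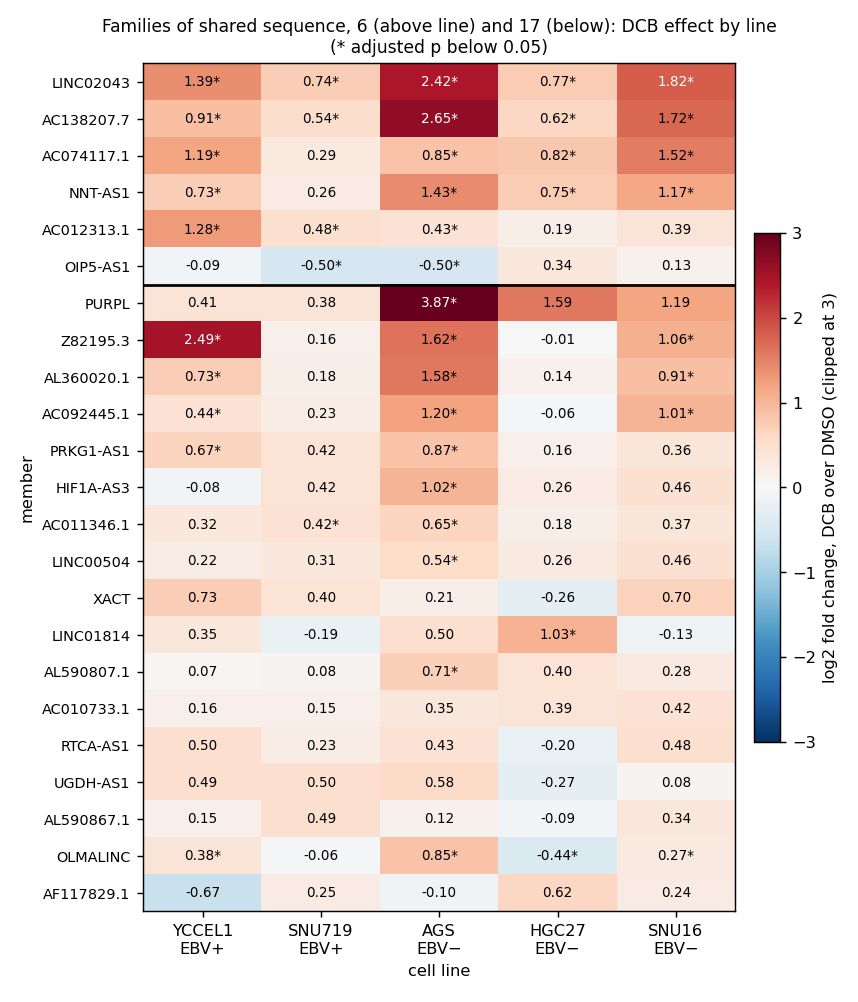
Log2 fold change of DCB over DMSO in each line for the family of 6 (above the black line) and that of 17 (below it), red for higher and blue for lower with DCB, and * for an adjusted p below 0.05. Colours are clipped at 3. LINC02043 and AC138207.7 carry * in all 5 lines, and AGS has the most marked cells.

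Several members were near 0 in some lines with DMSO and were raised there with DCB. UCA1, an lncRNA first described in bladder carcinoma and known from several carcinomas, was at 148 and 148 with DCB and 2.03 and 0 with DMSO in YCCEL1 and at 66.8 and 54.9 with DCB and 1.53 and 1.39 with DMSO in SNU719. In AGS, the line with the highest level under both treatments, it was at 1176 and 1218 with DCB and 292 and 316 with DMSO. In SNU16 it was at 109.6 and 97.5 with DCB and 46.0 and 62.1 with DMSO, and in HGC27 at 1.56 and 3.34 with DCB and 1.46 and 5.23 with DMSO, where the groups overlapped. UCA1 rose in YCCEL1 (log2 fold change 6.42, SE 0.48), SNU719 (4.65) and AGS (1.98), and over the 5 lines (log2 fold change 2.75, SE 0.61, adjusted p = 0.00290). With values this close to 0, the fold depends on the pseudocount of 1.

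LINC01551 was at 76.3 and 75.2 with DCB and 0.0821 and 0 with DMSO in AGS, at 115 and 114 with DCB and 33.6 and 41.3 with DMSO in YCCEL1 and at 308 and 304 with DCB and 93.7 and 125 with DMSO in SNU16. In HGC27, the line with the highest level with DMSO, it was lower with DCB, with 225 and 212 with DCB and 415 and 341 with DMSO. It rose in 4 lines, most in AGS (log2 fold change 6.20, SE 0.25, adjusted p = 6.97e-10), fell in HGC27 (log2 fold change −0.78, SE 0.25, adjusted p = 0.0323), and rose over the 5 lines (log2 fold change 1.89). RefSeq's promoter for it holds 2 CG pairs in 300 bases.

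PURPL, a p53-induced lncRNA that in human cells lowers p53 levels, was at 166 and 173 with DCB and 12.7 and 8.92 with DMSO in AGS and rose there (log2 fold change 3.87, SE 0.62, adjusted p = 0.000323). In YCCEL1 it was at 502 and 448 with DCB and 357 and 354 with DMSO, and it rose over the 5 lines (log2 fold change 1.49, SE 0.39, adjusted p = 0.00854), with groups that overlapped only in SNU16. LINC02693 rose in AGS, with 38.4 and 40.2 with DCB and 5.49 and 0 with DMSO (log2 fold change 3.98, SE 0.58, adjusted p = 0.000152), and in that line fitted alone it did not pass.

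ADIRF-AS1, whose span overlaps that of the adipogenesis factor gene ADIRF, was named after its values were seen. It was at 33.8 and 26.99 with DCB and 0 and 2.24 with DMSO in SNU719 and at 12.5 and 13.8 with DCB and 2.09 and 0 with DMSO in HGC27, and it rose in both (4.12 and 3.01). In YCCEL1 and AGS it was already high with DMSO, at 389.5 and 329 with DCB and 365 and 395 with DMSO in YCCEL1 and 425 and 398 with DCB and 512 and 523 with DMSO in AGS, and did not pass. ADIRF itself averaged 657 with DCB and 4.46 with DMSO in YCCEL1, 74.4 with DCB and 1.27 with DMSO in AGS and 54.8 with DCB and 12.4 with DMSO in SNU16. With DMSO it was listed at 0 in SNU719 and HGC27, where it averaged 171 and 3.21 with DCB. The promoters that RefSeq (GRCh38.p14) gives for ADIRF-AS1 and PURPL are examples of a CG-rich and a CG-free annotated start among the members that rose. They are printed over 300 bases, 250 before the start and 50 after it, with CG pairs in capitals.
ADIRF-AS1: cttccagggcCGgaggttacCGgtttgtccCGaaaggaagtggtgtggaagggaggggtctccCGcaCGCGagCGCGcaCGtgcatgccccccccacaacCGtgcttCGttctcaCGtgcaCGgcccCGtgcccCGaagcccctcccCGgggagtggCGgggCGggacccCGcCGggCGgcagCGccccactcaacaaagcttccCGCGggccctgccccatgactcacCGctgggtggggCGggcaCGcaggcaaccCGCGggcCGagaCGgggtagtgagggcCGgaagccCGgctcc
PURPL: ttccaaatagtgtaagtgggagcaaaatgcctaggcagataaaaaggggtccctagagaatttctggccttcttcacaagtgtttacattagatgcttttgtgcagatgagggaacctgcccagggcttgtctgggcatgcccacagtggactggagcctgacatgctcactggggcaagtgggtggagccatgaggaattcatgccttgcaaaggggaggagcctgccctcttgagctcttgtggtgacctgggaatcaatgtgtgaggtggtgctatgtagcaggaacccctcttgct
They lie at chr10:86971191-86971490 on the minus strand for ADIRF-AS1, with 33 CG pairs, and chr5:27472042-27472341 on the plus strand for PURPL, with none. The span counted for PURPL runs from 27217714 to 27496994 on chromosome 5 and has 126 transcripts in GENCODE. The printed start therefore lies well inside that span. Which start gave the reads that rose was not tested. The median number of CG pairs was 21 over the 23 members with a promoter that rose, 23.5 over the 26 that fell and 24 over the 77 that did not pass, against 14 over all 35116 promoters. CG pairs were counted on the printed strand, where each reads the same on the other, and at least 10 of them were found in 79.4% of the 126 members with a promoter and in 56.4% of all promoters.

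AL365181.3, in the span of BCAN, was at 106 and 119 with DCB and 0.882 and 1.99 with DMSO in YCCEL1 and at 33.4 and 27.2 with DCB and 0 and 3.62 with DMSO in HGC27, and rose in both (5.58 and 3.86). In the lines where it was already high with DMSO it did not pass, as in SNU16 with 329.8 and 353 with DCB and 401 and 405 with DMSO. PAX8-AS1, which overlaps the gene of the transcription factor PAX8, was at 87.2 and 100.2 with DCB and 5.05 and 6.82 with DMSO in AGS and rose there (3.78). In HGC27 its DCB libraries were at 10.1 and 6.27, and both DMSO libraries list it at 0. In SNU719 it was highest, with 1279 and 1426 with DCB and 1416 and 1489 with DMSO, and did not pass.

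LINC00824 was at 108 and 96.0 with DCB and 0.434 and 2.44 with DMSO in SNU16, where it rose (log2 fold change 5.54, SE 0.87, adjusted p = 0.00137), and at 519 and 491 with DCB and 985 and 930.5 with DMSO in HGC27, where it did not pass (−0.92). DUXAP8, a pseudogene transcript related to the germline homeobox gene DUXA, rose in SNU16 alone, with 15.9 and 21.8 with DCB and 2.04 and 7.60 with DMSO (1.94), and not when that line was fitted alone. HOTTIP, an RNA from the end of the HOXA cluster that binds WDR5, was at 9.62 and 8.29 in the DCB libraries of YCCEL1, whose DMSO libraries list it at 0. HOXA11-AS was at 11.4 and 7.37 with DCB in AGS and is likewise listed at 0 with DMSO there, while in HGC27 it fell, with 226 and 239 with DCB and 421 and 444 with DMSO (−0.89).

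A set of 4 members, named after their values were seen, followed a common profile. ESRG, a human transcript derived from an endogenous retrovirus of the HERVH family and known from embryonic stem cells, was most like AL009031.1, AL161431.1 and AP000547.3 over the 20 libraries, with Pearson's r of log2(value + 1) of 0.992, 0.986 and 0.926. These r values are descriptions, since all points share the lines. The members share at most 6.80% of their words. AL161431.1 (now named LINC03061) was at 4786 and 5004 with DCB and 923 and 960.2 with DMSO in AGS, at 108 and 104 with DCB and 11.5 and 3.97 with DMSO in YCCEL1 and at 838 and 852 with DCB and 819.9 and 755 with DMSO in SNU719. It rose in AGS (2.38) and YCCEL1 (3.76) and in no other line.

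ESRG was at 1906 and 1882 with DCB and 463 and 439.8 with DMSO in AGS and at 38.6 and 42.9 with DCB and 7.06 and 6.95 with DMSO in YCCEL1, and AL009031.1 at 1646 and 1644 with DCB and 396 and 343 with DMSO in AGS and 27.7 and 29.6 with DCB and 4.30 and 2.86 with DMSO in YCCEL1. Both rose in these lines and in no other, and over the 5 lines (log2 fold changes 0.96 and 1.16). AP000547.3 rose in all 5 lines, with 3207 and 3369 with DCB and 565 and 612 with DMSO in AGS, 598 and 616 with DCB and 255 and 241 with DMSO in SNU16 and 42.9 and 59.1 with DCB and 2.89 and 1.89 with DMSO in YCCEL1 (log2 fold change 1.84, SE 0.30, adjusted p = 0.000270 over the lines). AL391425.1, whose levels correlated with those of UCA1 (r = 0.949), was at 12.1 and 9.53 with DCB in YCCEL1 and at 40.3 and 33.9 with DCB in SNU719, and the DMSO libraries of these lines list it at 0. In HGC27 all 4 libraries list it at 0, and in AGS it was at 912 and 809 with DCB and 154 and 128 with DMSO (2.60).

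**Figure D5:**
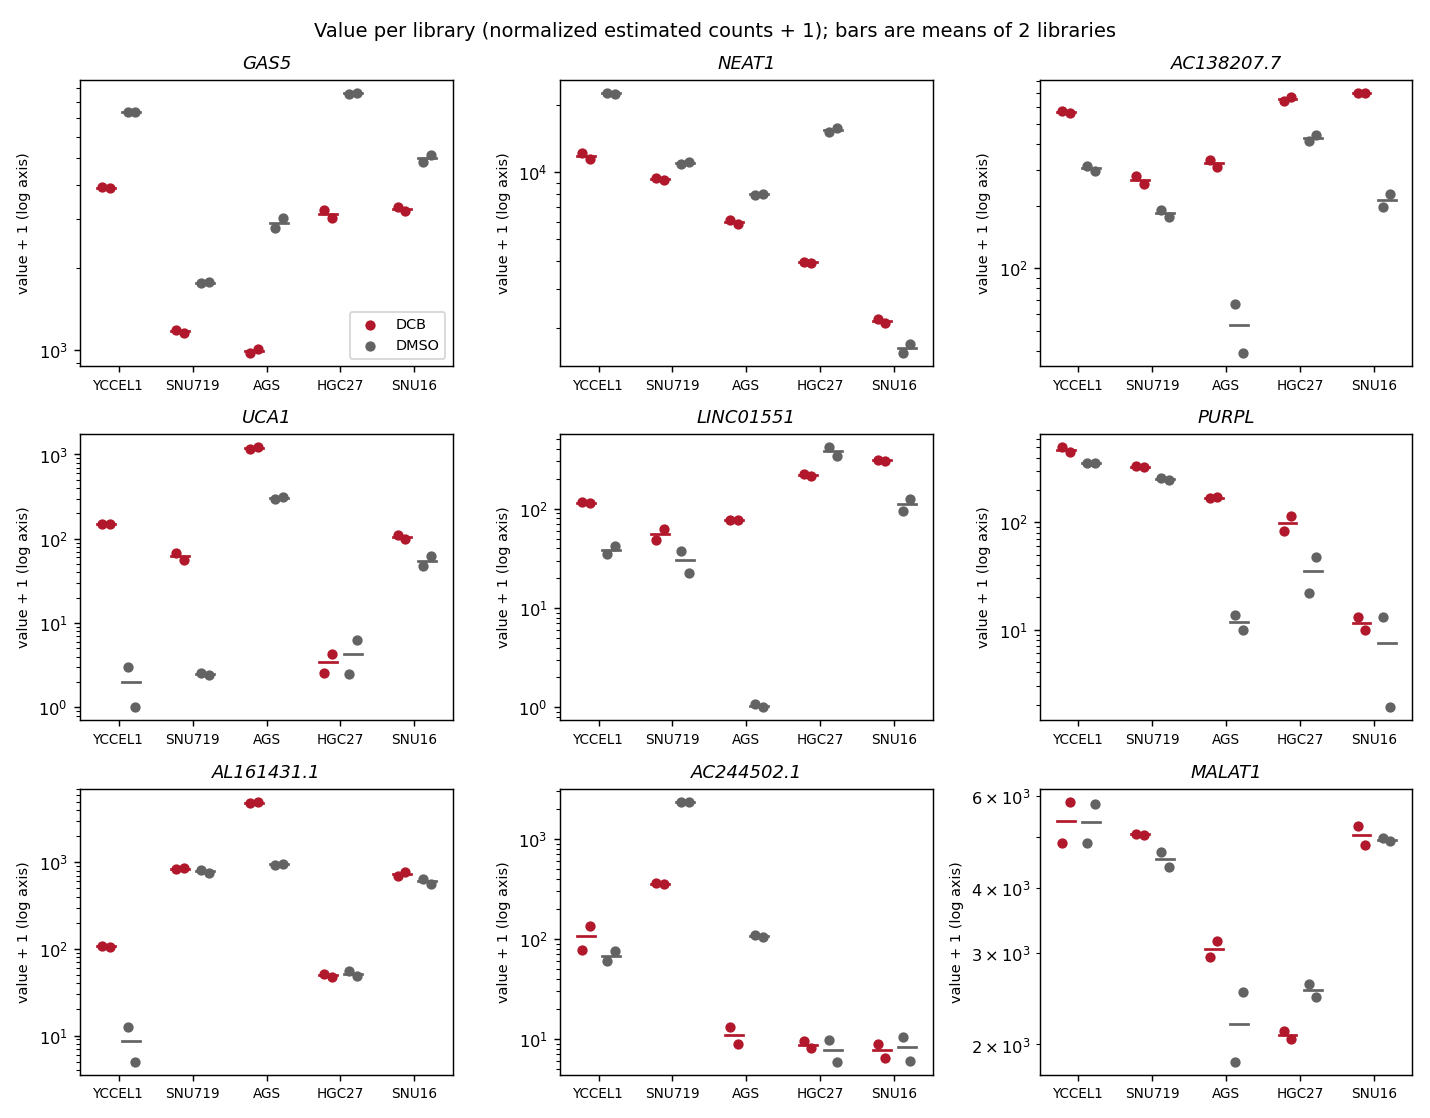
Value of 9 members in each library (normalized estimated counts plus 1, on a log axis), DCB in red on the left and DMSO in grey on the right of each line, with bars at the mean of 2 libraries. GAS5 lies lower with DCB in all 5 lines, AC138207.7 higher in all 5, and NEAT1 lower in 4 and higher in SNU16, while UCA1 and AL161431.1 are raised most in YCCEL1, and LINC01551 and PURPL most in AGS.

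Of 26 hosts of microRNAs on the list 6 are members, and MIR22HG, MIR34AHG and MIR23AHG rose over the 5 lines. MIR22HG, MIR23AHG and MIR99AHG are among the 12 that entered through their DCB values, so that the rises of the first 2 were partly chosen, and without these 3 members 1 of 3 rose and none fell. MIR22HG, the host of miR-22, was at 313 and 297 with DCB and 48.3 and 63.1 with DMSO in SNU719 and at 347 and 339.7 with DCB and 238 and 107 with DMSO in AGS. Its DMSO libraries in AGS lay far apart, and the groups did not overlap in any line. It rose over the lines (log2 fold change 1.09, SE 0.21, adjusted p = 0.000925). MIR34AHG, the host of the p53 target miR-34a, was at 10.8 and 12.4 with DCB and 1.15 and 2.42 with DMSO in HGC27, where it rose (2.22), and at 429 and 443 with DCB and 477 and 456 with DMSO in YCCEL1, where it did not pass (log2 fold change 0.84, SE 0.22, adjusted p = 0.00943 over the lines). MIR23AHG rose (log2 fold change 0.43, SE 0.13, adjusted p = 0.0184), while PVT1 (0.11), MIR4435-2HG (0.30) and MIR99AHG (0.40) did not pass, although PVT1 and MIR4435-2HG rose in AGS (0.78 and 1.32). MIR9-1HG, which is not on that list, rose over the lines (log2 fold change 1.17, SE 0.24, adjusted p = 0.00166), in SNU719 and AGS by the test in single lines, and its level was highest in SNU16, at 942 and 718 with DCB and 529 and 673 with DMSO. Over all 26 listed genes, which were all tested, 6 rose and none fell, where 17.9% of all genes tested were higher.

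Of 18 nuclear and structural lncRNAs 8 are members, and 4 fell over the 5 lines and none rose, where 6.94% of all genes tested and 16.4% of the genes of at least the lowest member's mean were lower. With quantile normalization 2 of the 8 fell. Over the 16 of the 18 that were tested, members or not, 4 fell and none rose. The list also holds OIP5-AS1, described above as cytoplasmic, so that its members are not all nuclear RNAs. NEAT1, the scaffold of the nuclear bodies called paraspeckles, was at 3976 and 3910.1 with DCB and 15232 and 15728 with DMSO in HGC27 and at 12143 and 11509.6 with DCB and 22725 and 22534 with DMSO in YCCEL1. In AGS it was at 6082 and 5851 with DCB and 7883 and 8029.6 with DMSO, in SNU719 at 9429 and 9270.2 with DCB and 10866 and 11124 with DMSO and in SNU16 at 2188 and 2117 with DCB and 1550.2 and 1706 with DMSO. It fell in the first 4 of these, most in HGC27 (log2 fold change −1.97, SE 0.04, adjusted p = 6.01e-13), and rose in SNU16 (log2 fold change 0.40, SE 0.04, adjusted p = 3.62e-05), where its level was lowest. Over the 5 lines it fell (log2 fold change −0.63, SE 0.19, adjusted p = 0.0197), but not past the threshold with quantile normalization.

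NORAD, which binds and holds back Pumilio proteins, fell by little (log2 fold change −0.27, SE 0.05, adjusted p = 0.000713), most in AGS, where it was at 3754 and 4051 with DCB and 5709 and 5699 with DMSO. FTX, an RNA from the X inactivation centre, fell slightly (log2 fold change −0.20, adjusted p = 0.0494), a call lost with equal totals, with quantile normalization and without any 1 of 17 of the 20 libraries. PAXIP1-DT fell too (log2 fold change −0.46, SE 0.12, adjusted p = 0.00708). MALAT1, which is found in nuclear speckles, did not pass over the lines (log2 fold change 0.08, SE 0.08, adjusted p = 0.502), with 4874 and 5844 with DCB and 4876 and 5785 with DMSO in YCCEL1 and 5251 and 4819 with DCB and 4966 and 4909 with DMSO in SNU16, and it rose in AGS (0.50).

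Other falls were confined to some lines or largest in them. AC244502.1 (now named TRD-AS1, within the T cell receptor delta locus) was at 362 and 349.7 with DCB and 2324 and 2359 with DMSO in SNU719 and at 12.1 and 7.97 with DCB and 109 and 104 with DMSO in AGS, and fell in both (−2.72 and −3.31). AC007405.3 was at 172 and 206 with DCB and 1029 and 962 with DMSO in SNU719 and fell there (−2.39), in AGS (−1.76), in HGC27 (−0.83) and over the 5 lines (log2 fold change −1.11, SE 0.22, adjusted p = 0.00117). COLCA1 fell in SNU719 (−2.20), but its DCB libraries there were at 20.5 and 172 against 299.8 and 262 with DMSO, and it did not pass with the line fitted alone or without any 1 of the 3 libraries other than DCB replicate 2.

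FP236383.3 and CU633967.1, both on the short arm of chromosome 21 and with 98.1% and 92.7% of their words in other genes, fell in YCCEL1 (−1.71 and −1.41) and AGS (−1.90 and −1.44). CU633967.1 was uneven in YCCEL1, at 44.7 and 186 with DCB and 230.1 and 261 with DMSO, and did not pass there without any 1 of the 3 libraries other than DCB replicate 2. THAP9-AS1 fell over the lines (log2 fold change −0.70, SE 0.10, adjusted p = 0.000125), with no overlap of groups in any line, and CRNDE, an lncRNA first described as raised in colorectal neoplasia, fell as well (log2 fold change −0.58, SE 0.14, adjusted p = 0.00476), most in AGS, where it was at 106 and 97.8 with DCB and 331 and 272 with DMSO.

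On the other lists few members were found. Over all genes tested 17.9% were higher and 6.94% lower over the 5 lines. Of the 12 p53-linked lncRNAs 5 are members, and PURPL and MIR34AHG rose and NEAT1 fell. Of 32 lncRNAs known from gastrointestinal carcinoma 7 are members, and UCA1, which entered through its DCB values, and NNT-AS1 rose, CRNDE fell, and CASC19 (0.24) and LINC01133 (−0.14) are examples of the 4 that did not pass. Of 17 immune-linked lncRNAs HCG18, HCG11 and HCP5 are members. HCP5, an RNA of the HLA class I region that likewise entered through its DCB values, was at 12.7 and 12.3 with DCB and 0.734 and 0.385 with DMSO in HGC27 and at 130.2 and 89.8 with DCB and 45.9 and 39.4 with DMSO in SNU719, rose there and in YCCEL1, and rose over the lines (log2 fold change 1.17, SE 0.29, adjusted p = 0.00604). HCG18 did not pass (0.10), and HCG11 rose in YCCEL1 (1.07) and fell in SNU719, AGS and HGC27. HOTTIP and HOXA11-AS were the 2 of 17 from the HOX clusters, DUXAP8 the 1 of 13 from germline and placenta, and no small structured RNA filed as lncRNA (0 of 10) reached the 200. Over the listed genes that were tested, members or not, 5 of 10 p53-linked and 8 of 28 gastrointestinal carcinoma lncRNAs rose. On these lists 1 and 2 fell. Of the others, 5 of 16 immune-linked, 8 of 16 HOX cluster and 4 of 13 germline and placental lncRNAs rose, and none fell.

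Levels differed between lines for most members. Among DMSO libraries 190 of the 200 differed between the 5 lines by limma's F-test, or 95.0%, against 67.7% of all genes tested and 93.6% of the genes of at least the lowest member's mean. A member may have entered through a single line, so this is a description. In 60 members the highest line held at most 30% of the sum of the 5 DMSO means, and in 14 it held at least 80%. HGC27 was the highest line for 60 members, SNU16 for 47, SNU719 for 39, YCCEL1 for 28 and AGS for 26. Against the mean of the other 4 lines, AGS had 49.5% of the members lower and 23.5% higher, against 21.7% and 19% of all genes tested and 27.4% and 35.3% of the genes of at least the lowest member's mean. SNU16 had 28.5% of the members lower and 44.5% higher, against 21.1% and 23% of all genes tested and 31% and 36% of the genes of at least that mean.

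Among the most line-bound members, LINC00824, FLJ36000 and MAGI2-AS3 had 99.8%, 99.7% and 99.7% of their summed DMSO means in HGC27. MAGI2-AS3 was at 966 and 826 with DCB and 751 and 3771 with DMSO in HGC27, so that the share rests on unequal libraries, and its DCB libraries in SNU719 were at 1.03 and 159.8. AC010998.3 (99.5%), LINC00261 (83.1%), which lies beside the endoderm factor gene FOXA2, and MIR9-1HG (82.6%) were highest in SNU16. LINC02331 (95.1%), LINC00326 (86.6%) and DLGAP1-AS2 (60.1%) were highest in YCCEL1, AC244502.1 (92.6%), SSTR5-AS1 (85.4%) and AC009133.1 (73.8%) in SNU719, and UCA1 (83.5%), AL391425.1 (71.5%) and AL009031.1 (58.5%) in AGS. In their own line, AC010998.3 and LINC00261 did not pass with DCB (log2 fold change 0.16 and 0.13 in SNU16), nor did LINC02331 (−0.51) or LINC00326 (−1.01) in YCCEL1.

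The response to DCB differed between lines for 105 members (52.5%) by the F-test of the 5 effects, against 34.2% of all genes tested and 54.5% of the genes of at least the lowest member's mean. The series asks whether EBV+ lines respond differently. The mean effect in YCCEL1 and SNU719 minus that in AGS, HGC27 and SNU16 was higher for 41 members (20.5%) and lower for 20 (10.0%), against 10.5% and 9.17% of all genes tested and 14.5% and 18.8% of the genes of at least the lowest member's mean. These counts include the 12 members that entered through their DCB values, UCA1 among them, and were not taken over the 188 others. Part of the excess on the higher side may come from that choice. The spread of these tests is that of libraries and not of lines, and the EBV status and other features of the lines cannot be told apart with 2 EBV+ lines. UCA1 had the largest difference among members with no group at 0 (difference of log2 fold changes 4.64, SE 0.44, adjusted p = 5.3e-06), and it rose in AGS too. SLC9A3-AS1 (difference of log2 fold changes 1.98, SE 0.22, adjusted p = 2.11e-05) was at 61.1 and 42.4 with DCB and 6.13 and 12.9 with DMSO in SNU719 and at 332 and 359 with DCB and 837 and 909.6 with DMSO in AGS, where it fell (−1.33). It rose in SNU719 (2.38) but did not pass in YCCEL1 (0.54), the other EBV+ line, nor in HGC27 (−0.47) or SNU16 (0.24). Its difference thus rests mainly on SNU719 and AGS. Of its exons 17.5% lie opposite those of the coding gene SLC9A3. In SNU719 SLC9A3 averaged 73.3 with DCB and was listed at 0 with DMSO. SLC9A3 also rose in YCCEL1, with means of 144 with DCB and 51.7 with DMSO, and did not pass in AGS, HGC27 or SNU16. Whether reads of SLC9A3 entered the values of SLC9A3-AS1 was not tested.

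On the lower side, LINC00665 (difference of log2 fold changes −1.09, SE 0.09, adjusted p = 2.12e-06) fell in YCCEL1 (−0.39) and SNU719 (−0.35) and rose in SNU16 (0.43) and most in AGS (1.90), where it was at 2291 and 2474 with DCB and 688 and 593 with DMSO. PURPL (difference of log2 fold changes −1.82, SE 0.56, adjusted p = 0.0367), AC091057.1 (difference of log2 fold changes −1.72, SE 0.46, adjusted p = 0.0166) and MIR34AHG (difference of log2 fold changes −1.12, SE 0.27, adjusted p = 0.00966) were lower as well, but the call of PURPL ended without any 1 of 14 libraries and that of AC091057.1 without DCB replicate 2 of YCCEL1 or of SNU719. PAX8-AS1, lower too, is listed at 0 in a group and gets no value. AC091057.1 lies almost wholly in exons of a coding gene on its own strand (99.1%), and cannot be counted apart from it.

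For the CIMP+ lines (YCCEL1, SNU719 and AGS) minus the CIMP− lines (HGC27 and SNU16), 42 members were higher (21.0%) and 21 lower, against 12.8% and 8.94% of all genes tested and 16.4% and 19.4% of the genes of at least the lowest member's mean. These counts too include the 12 members that entered through their DCB values, UCA1 and LINC01551 among them, and were not taken over the 188 others. UCA1 (3.995), LINC01551 (difference of log2 fold changes 2.55, SE 0.22, adjusted p = 2.36e-06), AL161431.1 (difference of log2 fold changes 1.97, SE 0.25, adjusted p = 7.76e-05) and AL009031.1 (difference of log2 fold changes 1.73, SE 0.23, adjusted p = 9.49e-05) were higher. The difference of LINC01551 rests on AGS and HGC27, since it rose in SNU16 (1.49) by about as much as in YCCEL1 (1.59). AC244502.1 (difference of log2 fold changes −1.88, SE 0.32, adjusted p = 0.000718), AC091057.1 (difference of log2 fold changes −1.71, SE 0.46, adjusted p = 0.0160), LINC01106 (difference of log2 fold changes −1.39, SE 0.26, adjusted p = 0.00154), CU633967.1 (difference of log2 fold changes −1.38, SE 0.40, adjusted p = 0.0241) and MIR34AHG (difference of log2 fold changes −1.20, SE 0.27, adjusted p = 0.00585) were lower, and the call of CU633967.1 ended without any 1 of 4 libraries of HGC27 and SNU16. LINC01106 shares 90.4% of its words with LINC01123, so the 2 cannot be counted apart.

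Of the members, 61 are named after a neighbouring coding gene that was tested (names ending in -AS, -DT or -OT), and 23 of them were called over the 5 lines. In 11 of these 23 the partner's change had the same sign, and in 5 the partner was called too, 4 with the same sign. Over all genes tested 24.9% were called, so that these 5 of 23 partners are near the background. These 4 were DHRS4-AS1 with DHRS4, SSTR5-AS1 with SSTR5, ADIRF-AS1 with ADIRF and WARS2-AS1 with WARS2, named after their values were seen, and in the fifth, NNT-AS1 rose while NNT fell. SSTR5-AS1 (log2 fold change 1.136, adjusted p = 0.0213) and SSTR5, a somatostatin receptor gene (log2 fold change 1.60, adjusted p = 0.000188), rose together. Over the 61 pairs the log2 fold changes of member and partner had a Pearson's r of 0.283, a description across genes. AC009133.1, now named MVP-DT, rose (log2 fold change 0.78, SE 0.15, adjusted p = 0.000925) while MVP did not pass (log2 fold change −0.05, adjusted p = 0.857), and 62.0% of its exons lie opposite coding exons. The sources differ on whether the libraries kept strand, and if they did not, reads of a member and of a gene on the other strand cannot be told apart: 83 members overlap coding exons on the opposite strand, 34 of them over at least 10% of their length, and 98 overlap none. Among these 98 members, 25 rose and 16 fell over the 5 lines, where 17.9% of all genes tested were higher and 6.94% lower. On the same strand, 29 members overlap coding exons, 13 of them over at least 10% of their length. In such shared exons, reads of the member and of the coding gene cannot be told apart even if strand was kept.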

How the data were processed

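RNA was sequenced in bulk from 5 gastric cancer cell lines, each with 2 DCB and 2 DMSO libraries after 72 h. The values deposited by the authors are a signal per gene, taken here as normalized estimated counts because they are never negative, mostly not whole and similar in total between libraries. The authors did not state which program gave the fractions. The paper names 3′ libraries aligned with STAR to GRCh38 with the EBV genome, whereas the labels name a poly(A) kit without saying whether strand was kept, and the submitters' processing notes list GRCh37, DESeq2 1.14.1, STAR 2.5.2b and featureCounts 1.5.1. The gene spans in the table are those of GRCh38, with 92.6% of 60064 genes identical in start and end to GENCODE. The paper names another line in places where the labels have HGC27, and groups follow the labels.

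A gene was tested if its 20 values add up to over 10, which held for 27350 of 60232 genes, and 20976 were at 0 throughout. limma 3.58.1 in R 4.3.3 was fitted to log2(value + 1) on the whole table with a trend, two-sided, with Benjamini-Hochberg adjustment over all genes tested. The effect over the 5 lines had a term for the line, and the effects by line, the F-tests and the EBV and CIMP differences came from a fit of 10 groups. Fold changes are on this log2(value + 1) scale and understate changes of low genes. No fold is given where a group is listed at 0. "Rose" and "fell" mean an adjusted p below 0.05. Read depth is not known from the files, so no counting interval is given, and 2 libraries a group limit the precision. The fit was tested on simulated data.

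Members named are the 10 highest, the most significant over the lines, the largest changes per line and per difference, the most line-bound, and those on the lists. The members and lists were chosen with earlier results of these data known. Shared 31-base words and overlaps with coding exons were computed from GENCODE, and promoters came from RefSeq (126 members matched, none printed from chromosome 8). Python 3.11.15 with pandas 2.3.3 and matplotlib 3.10.9 was used for tables and figures. The sequence that members of a family share is not reported here. The alternatives were other pseudocounts, filters, scalings and fits, a replicate block, leaving out each library and other ways to rank the members.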

Additional observations from a re-analysis of the deposited data

Results flagged for a closer look

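These members, among those named in the text and listed at 0 in no group, had DCB effects that differed between groups of lines by limma's test of the difference itself, on the log2 scale with adjustment over all genes tested. For EBV+ minus EBV− lines the differences were 4.64 for UCA1 and 1.98 for SLC9A3-AS1, and on the lower side −1.82 for PURPL, −1.72 for AC091057.1, −1.12 for MIR34AHG and −1.09 for LINC00665. For CIMP+ minus CIMP− lines they were 3.995 for UCA1, 2.55 for LINC01551, 1.97 for AL161431.1 and 1.73 for AL009031.1. Lower in the CIMP+ lines were AC244502.1 with −1.88, AC091057.1 with −1.71, LINC01106 with −1.39, CU633967.1 with −1.38 and MIR34AHG with −1.20. AC091057.1, LINC01106 and CU633967.1 share most of their sequence with other genes. UCA1 and LINC01551 are among the members that entered through their DCB values. SLC9A3-AS1 rose in SNU719 and fell in AGS, and did not pass in YCCEL1, HGC27 or SNU16. SLC9A3, on the opposite strand, averaged 73.3 with DCB in SNU719 and was listed at 0 with DMSO there. The EBV and CIMP contrasts use the same libraries and differ only in the side on which AGS stands.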

How the results depend on the processing

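With each line fitted alone, which leaves 4 libraries to estimate the spread, fewer members passed: 24 were higher and 18 lower in YCCEL1, 16 were higher and 21 lower in SNU719, 29 were higher and 30 lower in AGS, 15 were higher and 26 lower in HGC27, and 4 were higher and 7 lower in SNU16. When each library was left out in turn, the members higher and lower numbered 37 to 41 and 31 to 38 over the 5 lines, 33 to 37 and 16 to 21 in YCCEL1, 16 to 21 and 19 to 25 in SNU719, 40 to 43 and 32 to 40 in AGS, 18 to 22 and 35 to 37 in HGC27 and 12 to 15 and 7 to 10 in SNU16. For the EBV difference they were 37 to 43 and 16 to 22, and for the CIMP difference 32 to 45 and 16 to 21. Leaving 1 library in a group assumes that it varies like the other groups. The numbers of the libraries did not pair them, since same-numbered DCB and DMSO libraries deviated from their group means with correlations of −0.04 to 0.02, and with a replicate block 31 members were higher and 24 lower over the 5 lines. Other pseudocounts, filters and scalings kept the counts over all 200 members within 1.5 times in every comparison. On shorter lists quantile normalization moved the falls to 2 of the nuclear and structural members, against 4 as reported, and to none of the p53-linked members, against 1. With equal totals 63.9% of the members called over the 5 lines were higher and with quantile normalization 47.2%, against 53.2% as reported. MIR99AHG, which was not called, had −0.18 over the 5 lines with quantile normalization, against 0.40 as reported, and the cause was not tested. Leaving out 1 library changed no sign of a named call and ended 9 of them in at least 1 case, each given with its member. The snoRNA hosts that fell numbered 12 to 15 in all settings, and 5 of the family of 6 rose in each of them. NEAT1 over the 5 lines (adjusted p = 0.0565), both differences of MIR34AHG and the EBV difference of PURPL did not pass with quantile normalization.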
